A study of Mus musculus with 20 samples.

Results

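The genes described here run the fast exchange of high-energy phosphate in muscle: the creatine kinases Ckm, Ckmt2 and Ckb, the adenylate kinase Ak1, the AMP deaminase Ampd1, and the AMPK subunits Prkaa2 and Prkag3. They were taken by symbol from the array's annotation, which names probe sets for 4 of the 7 genes. Ckm, Ckmt2 and Ckb have 1 probe set each and Ak1 has 2, so the members are 5 of 22690 probe sets. Ampd1, Prkaa2 and Prkag3 have no probe set under their symbols and were not analysed here.

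RNA from skeletal muscle of 20 mice was labelled with biotin and hybridised to Affymetrix 3' expression arrays, 1 per mouse. The 4 groups hold 5 mice each: trained transgenic, untrained transgenic, trained wild-type and untrained wild-type mice. The series title describes the transgene as over-expressed MHC-I and the training as endurance training, and asks what the training does in such mice. The labels give no strain, sex, age, muscle, promoter or training protocol, and the deposited free-text description that calls every mouse transgenic and trained was set aside in favour of titles and source names. Values are probe set intensities on a linear scale. Array medians lay between 157 and 175, and arrays of trained wild-type mice held 883 of the 1745 empty cells. No member's tested probe set has an empty cell.

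All 7 markers of skeletal muscle fibres passed the filter on dim probe sets. They are Acta1 and the fast fibre genes Myh4, Myh1, Mylpf, Tnnt3, Tnni2 and Tnnc2. Their summed intensity ran from 97461.7 to 106005 over all mice, with overlapping groups. Whether so bright a sum follows the fibre content was not tested. Of the 7, Myh1 alone passed an adjusted p of 0.05 for training averaged over genotypes, at 0.21 ± 0.05 log2 (limma adjusted p = 0.0303). Of all tested probe sets 2.41% were called higher there. The 7 slow fibre markers summed to between 2894 and 4139 in trained transgenic mice and between 2809 and 5497 in untrained transgenic mice, against 7063 to 12336 in trained wild-type mice (4 with all values) and 5013 to 17324 in untrained wild-type mice. The sums of trained groups did not overlap, while those of untrained groups did. For the transgene averaged over training 6 of the 7 markers fell past an adjusted p of 0.05, where 0.906% of all tested probe sets did. In trained mice alone 3 of 7 did (0.0516% of all), and in untrained mice alone 2 of 7 (0.0958% of all). None of the 7 had a value above 0 in these comparisons, with medians of -1.44, -1.62 and -1.26 log2. The lower counts within a training state thus do not show a smaller difference. In whole muscle, fewer fibres of a type and less RNA per fibre cannot be told apart.

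Creatine kinases move a phosphate between ATP and creatine. The mitochondrial form, encoded by Ckmt2 in striated muscle, charges creatine with ATP leaving the respiratory chain. The cytosolic muscle form Ckm spends phosphocreatine at the myofibrils, and the brain-type form Ckb is known from brain, smooth muscle and other tissues. Adenylate kinase, Ak1 in the cytosol of muscle, turns ADP pairs into ATP and AMP, and AMP then signals through AMPK.

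The sequences just upstream of the 3 creatine kinase genes are shown because the genes encode isoforms of 1 enzyme whose transcripts gave different readings here. They come from RefSeq, build GRCm38.p6, and cover the 250 bases before the listed start. Capitals mark matches on either strand to short core promoter and enhancer motifs. The TATA box was searched as TATANA, and the box bound by nuclear factor Y was searched as CCAAT. The E-box, which myogenic factors such as MyoD recognise, was searched as CANNTG. The GC box of Sp1 was searched as GGGCGG, and the core that estrogen-related receptors recognise was searched as AAGGTCA.
Ckmt2, chr13:91876886-91877135, minus strand: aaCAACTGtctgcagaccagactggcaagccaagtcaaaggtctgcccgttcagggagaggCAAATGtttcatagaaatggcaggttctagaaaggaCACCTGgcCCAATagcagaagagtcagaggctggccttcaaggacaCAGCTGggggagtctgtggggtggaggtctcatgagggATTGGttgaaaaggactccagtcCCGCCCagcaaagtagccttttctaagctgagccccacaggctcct
Ckm, chr7:19410844-19411093, plus strand: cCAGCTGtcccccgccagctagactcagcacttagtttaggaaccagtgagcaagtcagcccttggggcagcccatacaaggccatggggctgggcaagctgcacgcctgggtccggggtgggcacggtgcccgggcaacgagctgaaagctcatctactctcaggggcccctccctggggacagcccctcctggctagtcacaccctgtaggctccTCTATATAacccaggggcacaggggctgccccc
Ckb, chr12:111672339-111672588, minus strand: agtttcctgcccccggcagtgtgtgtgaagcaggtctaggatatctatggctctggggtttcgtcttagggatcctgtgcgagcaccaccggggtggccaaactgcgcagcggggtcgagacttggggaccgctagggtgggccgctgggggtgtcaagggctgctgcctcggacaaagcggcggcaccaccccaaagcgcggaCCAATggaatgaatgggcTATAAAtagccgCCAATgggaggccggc
The Ckmt2 window held E-boxes from -248, -189, -153 and -107 (counted from the start), CCAAT boxes from -145 and -69 and a GC box from -46, with no TATA match. The Ckm window held a TATA match from -31, overlapped on the opposite strand by matches from -33 and -31, and an E-box from -249. The Ckb window held a TATA match from -28 and CCAAT boxes from -46 and -16. Among 32851 such windows, 66.2% held an E-box, 33.8% a CCAAT box, 32.7% a GC box, 22.6% a TATA match and 4.08% the AAGGTCA core, which is in none of the 3. A match is a run of letters and not a measured site. The array holds no reading of factor binding.

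Ckmt2 rose with training. Trained transgenic mice read 8163 (TGT-128), 8274 (TGT-132), 6819 (TGT-133), 8230 (TGT-140) and 7483 (TGT-143) in intensity, against 6843 (TGUT-131), 6328 (TGUT-139), 6596 (TGUT-145), 4538 (TGUT-146) and 6632 (TGUT-147) in untrained transgenic mice. In the wild type, trained mice read 8353 (WTT-129), 8354 (wtt-134), 7978 (wtt-137), 9064 (WTT-141) and 7523 (WTT-144), against 5969 (WTUT-130), 5884 (WTUT-135), 6410 (WTUT-136), 6734 (WTUT-138) and 6259 (WTUT-142) in untrained mice. All 5 trained wild-type mice lay above all 5 untrained ones, and in transgenic mice 4 of 5 did, TGT-133 falling just below TGUT-131. The share of all tested probe sets that separate likewise was not counted, so this separation has no baseline here.

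The Ckmt2 means were 7794 ± 634 in trained and 6187 ± 940 in untrained transgenic mice, and 8254 ± 567 in trained and 6251 ± 344 in untrained wild-type mice (SD, n = 5 each). Averaged over genotypes, training raised Ckmt2 by 0.37 ± 0.06 log2 (SE), which is 1.29-fold (95% interval 0.24 to 0.50 log2; limma adjusted p = 0.00503). A probe set was called past an adjusted p of 0.05, and 4.99% of the 13575 tested probe sets were called for this comparison, 2.41% higher and 2.59% lower. Of the 4 measured members Ckmt2 was the 1 called. It was called in each of the 20 fits with 1 mouse left out (0.32 to 0.39 log2) and under each of the other settings tried. All members with a tested probe set had values above 0 (median 0.11 log2), against 50.7% of all tested probe sets (median 0.0019 log2).

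Within a genotype the Ckmt2 difference was of similar size but did not pass the threshold over all probe sets. It was 0.34 ± 0.09 log2 in transgenic mice (95% interval 0.16 to 0.53; limma adjusted p = 0.0716), where 0.309% of probe sets were called (0.133% higher, 0.177% lower). It was 0.40 ± 0.09 log2 in wild-type mice (95% interval 0.21 to 0.58; limma adjusted p = 0.181), where 0% were called and 1069 probe sets had an unadjusted p under 0.05. Without TGUT-146 the wild-type adjusted p was 0.0225, and Ckmt2 was then the only probe set called for that comparison. TGUT-146 is in neither wild-type group and enters through the spread that the 4 groups share, so the difference stayed at 0.40 log2. A fit to the wild-type groups alone called 0 probe sets. Without TGUT-145 the transgenic adjusted p was 0.0301. The training difference in transgenic minus that in wild-type mice was -0.06 ± 0.13 log2 (95% interval -0.32 to 0.21; limma adjusted p = 1), and -0.16 ± 0.08 log2 without TGUT-146 (adjusted p = 1). For that interaction 0% of probe sets were called and 395 had an unadjusted p under 0.05.

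**Figure D1:**
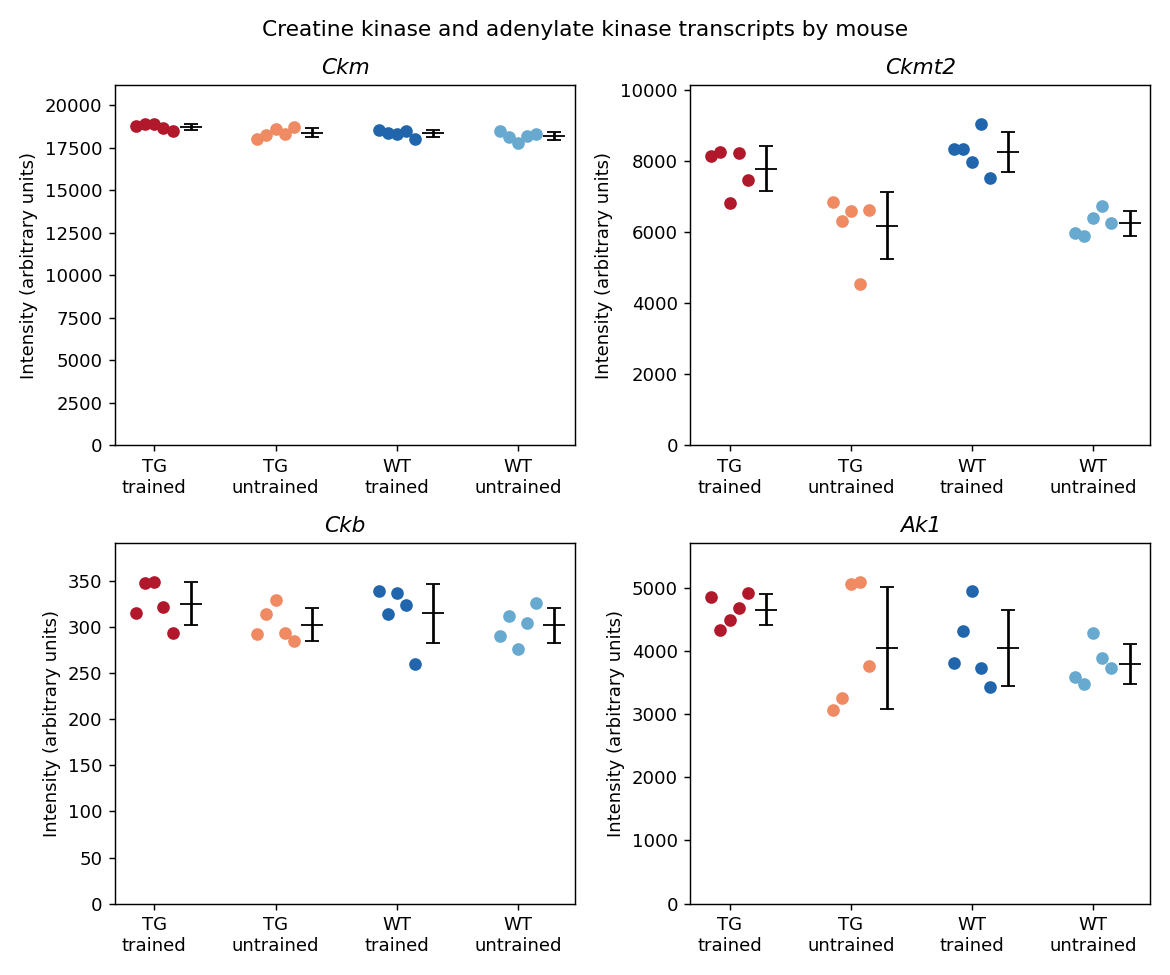
Intensity of the 4 measured genes in each mouse (y axis, arbitrary units, linear from 0), by group. Each point is 1 mouse, and the bar beside each group gives the mean and SD (n = 5). In the Ckmt2 panel, 9 of the 10 trained mice lie above all 10 untrained mice, and the Ckm points of all groups lie in a narrow band between 17808 and 18926. The share of all probe sets with such a separation was not counted.

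Ckmt2 did not pass the test for the transgene in either training state. The transgenic difference averaged over training was -0.06 ± 0.06 log2 (95% interval -0.19 to 0.08; limma adjusted p = 0.675), a comparison that called 1.23% of probe sets, 0.324% higher and 0.906% lower. It had no stable direction, at 0.00047 log2 under quantile normalization. In trained mice alone the difference was -0.08 ± 0.09 log2 (95% interval -0.27 to 0.10; limma adjusted p = 0.737), with 0.0516% of probe sets called (7, and 20.3 times as many without wtt-137). In untrained mice alone it was -0.03 ± 0.09 log2 (95% interval -0.21 to 0.16; limma adjusted p = 0.972), with 0.11% called (0.0147% higher, 0.0958% lower), and it was 0.08 log2 without TGUT-146 and 0.02 log2 under quantile normalization. The same mice showed lower slow fibre markers, of which 6 of 7 fell with the transgene averaged over training (median -1.44 log2). By mean Ckmt2 level the groups ran from untrained transgenic through untrained wild-type and trained transgenic to trained wild-type mice. Neighbours of the same training state overlapped, and the lowest trained transgenic mouse (6819) lay above the highest untrained wild-type mouse (6734). Such a gap was not counted over all probe sets.

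Within groups, Ckmt2 and slow fibre transcript were related by rank, a call that was lost without TGUT-146, while the linear relation missed the threshold after adjustment. After group means were removed, the Ckmt2 level and the mean log2 deviation of the 7 slow fibre markers correlated over 20 mice with Pearson's r = 0.509 (permutation within groups, two-sided p = 0.0143, adjusted over 4 members 0.0573) and Spearman's rho = 0.582 (permutation p = 0.00871, adjusted 0.0348). Without the 2 mice farthest out in slow fibre score, WTUT-130 and WTT-141, r was 0.613. Without TGUT-146, which has the lowest Ckmt2 value, r was 0.424 (permutation p = 0.0707, adjusted 0.283) and rho 0.514 (permutation p = 0.0322, adjusted 0.129). Ckm (r = 0.13, permutation adjusted p = 0.852), Ckb (r = -0.0051, permutation adjusted p = 0.985) and Ak1 (r = -0.149, permutation adjusted p = 0.852) gave no relation past the threshold, with rho of 0.185, -0.129 and -0.0947.

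**Figure D2:**
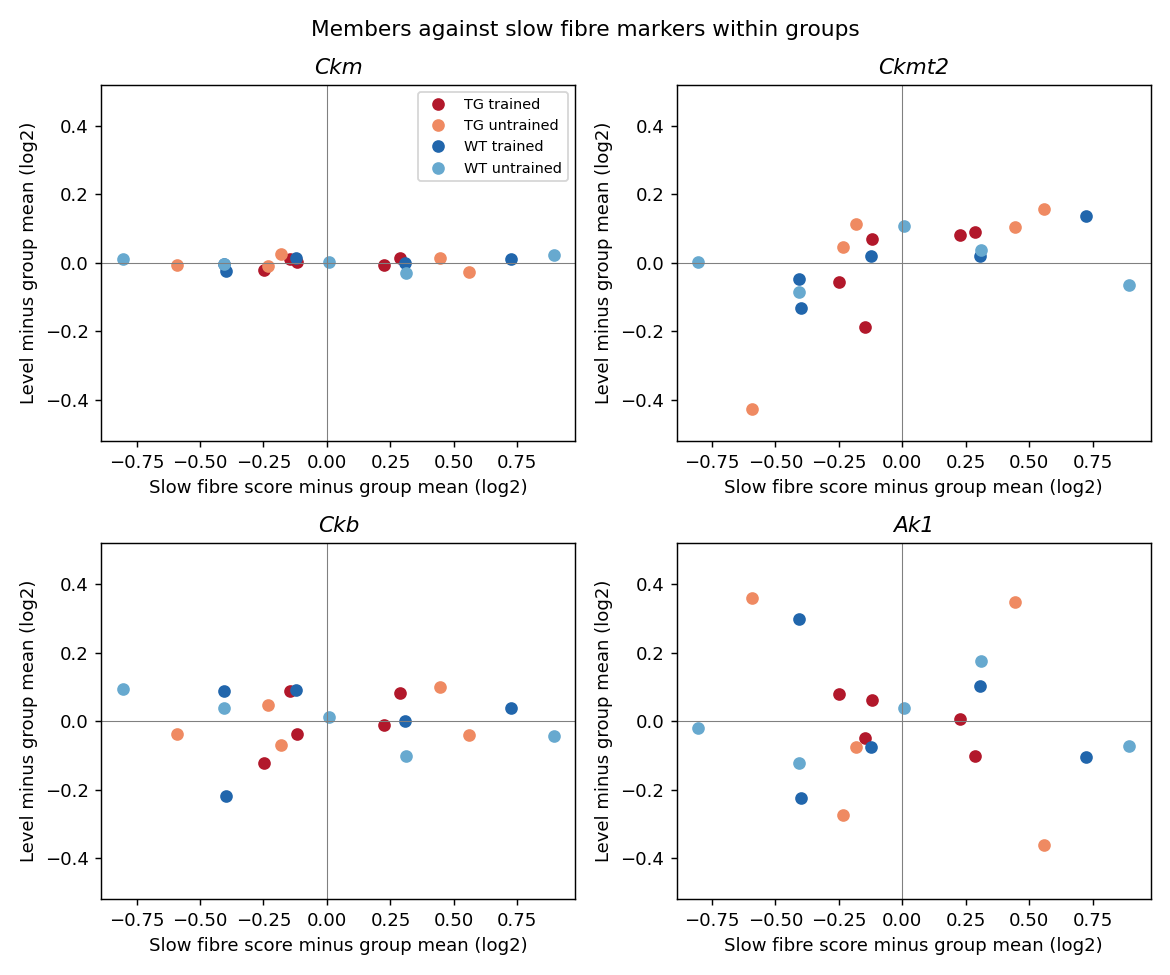
Level of each measured gene minus its group mean (y axis, log2) against the slow fibre score minus its group mean (x axis, log2), 1 point per mouse, coloured by group. The Ckmt2 points run upward (r = 0.509 over 20 mice), with TGUT-146 lowest, and the Ckm points lie flat.

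The genes whose pattern was most like that of Ckmt2 over the 20 arrays were Uqcrc2, a core subunit of complex III (r = 0.908), Atp5g1, a subunit of ATP synthase (r = 0.904), and Pdha1, a subunit of the pyruvate dehydrogenase complex (r = 0.886). With group means removed the same pairs had r of 0.843, 0.72 and 0.782. These values are descriptions of 1 set of 20 arrays. Uqcrc2 averaged 3769 ± 162 intensity in trained and 3230 ± 264 in untrained transgenic mice, and 3864 ± 172 in trained and 3479 ± 234 in untrained wild-type mice (SD, n = 5 each). Its group means stood in the same order as those of Ckmt2.

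Ckm was among the brightest transcripts on every array, and its range was narrow. It ranked between 1 and 4 among all probe sets of an array and reached 95.8% to 100% of the array's highest intensity. Trained transgenic mice read 18778, 18926, 18888, 18649 and 18486, against 18037, 18261, 18584, 18308 and 18737 in untrained transgenic mice. In the wild type, trained mice read 18539, 18356, 18290, 18474 and 18045, against 18466, 18136, 17808, 18203 and 18320 in untrained mice. Trained transgenic mice had the highest mean, 4 of the 5 lying above every trained wild-type mouse, and groups that differ by training or by the transgene alone overlapped.

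The Ckm means were 18745 ± 181 in trained and 18385 ± 277 in untrained transgenic mice, and 18341 ± 192 in trained and 18187 ± 246 in untrained wild-type mice (SD, n = 5 each). The training difference averaged over genotypes was 0.02 ± 0.01 log2 (95% interval -0.0065 to 0.047; limma adjusted p = 0.407). The transgene difference averaged over training was 0.023 ± 0.013 log2 (95% interval -0.0031 to 0.05; limma adjusted p = 0.35) and 0.0039 log2 under quantile normalization. The interaction was 0.016 ± 0.025 log2 (limma adjusted p = 1). The coefficient of variation of Ckm over all 20 mice was 1.61%, against a median of 2.48% for the 20 brightest probe sets and 12% for the brightest 2263. The 20 brightest probe sets thus varied little as a set. Whether the reading of Ckm is held near the top of the scale was not tested, so its intervals describe the reading and not necessarily the transcript. By likeness over the 20 arrays Ckm stood nearest to Csn1s1 (r = 0.784), Mgat1 (r = 0.784) and Vps9d1 (r = 0.77). With group means removed r was 0.552, 0.692 and 0.841. Csn1s1 was dim, with group means from 123 to 150 in intensity, near the filter at 126.

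Ckb, the brain-type isoform, ranked between 5446 and 7663 among the probe sets of an array, and none of its differences passed the test. Trained transgenic mice read 315, 348, 349, 322 and 293 in intensity, against 292, 315, 329, 293 and 285 in untrained transgenic mice. In the wild type, trained mice read 339, 314, 337, 324 and 260.1, against 291, 312, 276, 304 and 326 in untrained mice. The groups overlapped in every comparison. Means were 325 ± 23.7 and 303 ± 18.3 in trained and untrained transgenic mice, and 315 ± 32.2 and 302 ± 19.2 in trained and untrained wild-type mice (SD, n = 5 each).

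The training difference of Ckb was 0.07 ± 0.04 log2 averaged over genotypes (95% interval -0.026 to 0.16; limma adjusted p = 0.44). The transgene difference was 0.02 ± 0.04 log2 averaged over training (95% interval -0.07 to 0.12; limma adjusted p = 0.819), with no stable direction, at -0.0045 log2 without WTT-144. The interaction was 0.04 ± 0.09 log2 (95% interval -0.15 to 0.22; limma adjusted p = 1), at -0.017 log2 without WTT-144. Ckb is also known from smooth muscle, whose 5 markers (4 past the filter) summed to between 1978 and 2521 in trained and between 1510 and 2491 in untrained transgenic mice, and to between 1888 and 2470 in trained and between 1840 and 1990 in untrained wild-type mice (4 with all values). Of those 4 tested markers 1 rose with training averaged over genotypes, where 2.41% of all tested probe sets were called higher. It was Smtn (smoothelin), at 0.47 ± 0.11 log2 (limma adjusted p = 0.0257). The part of the smooth muscle markers in the Ckb reading was not tested. The genes nearest to Ckb over the 20 arrays were Lamb3 (r = 0.822), Pex6 (r = 0.81) and Nab1 (r = 0.807).

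**Figure D3:**
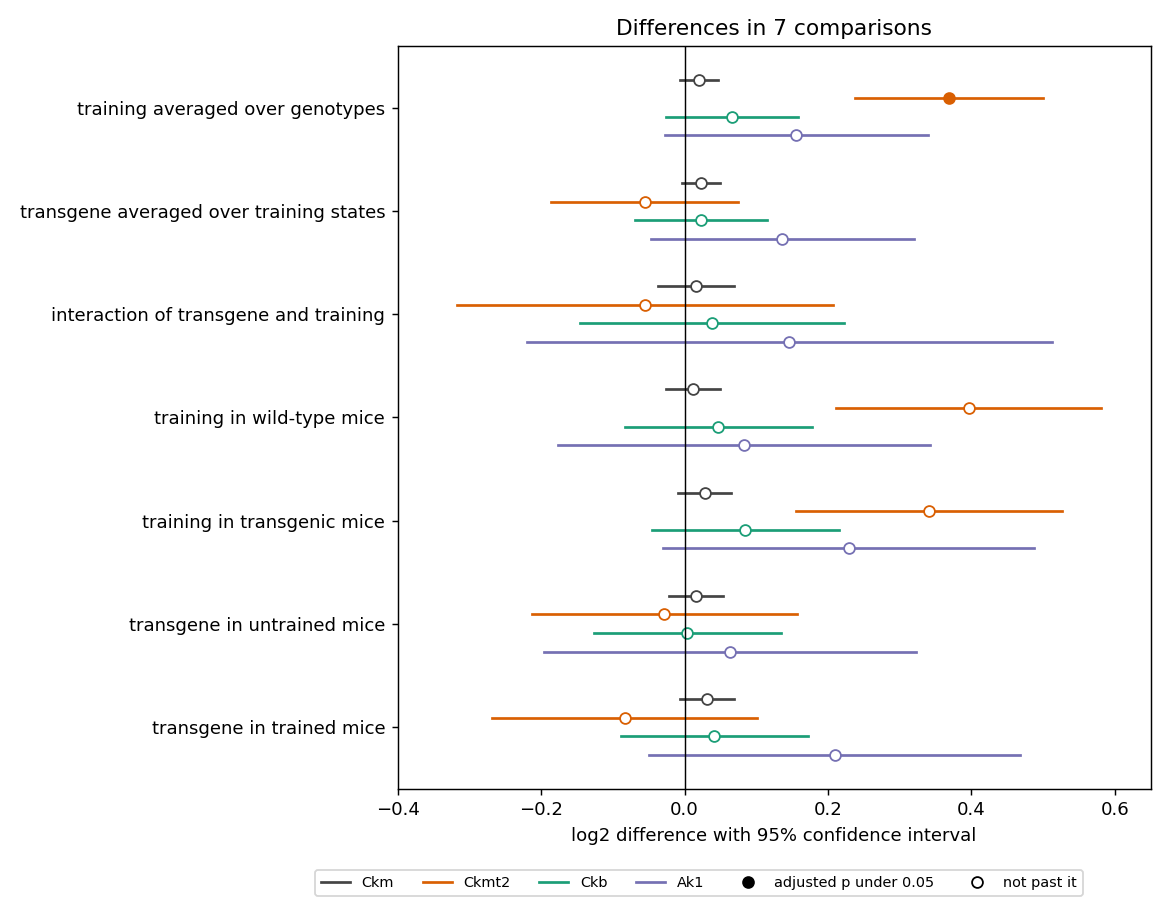
Fitted log2 difference of each measured gene with its 95% confidence interval (x axis) in 7 comparisons (y axis), first-named state minus its counterpart. The filled point marks Ckmt2 for training averaged over genotypes, the 1 value past an adjusted p of 0.05, and the Ckm intervals are the narrowest.

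Ak1 had the widest spread of the 4 genes in 3 of the groups, with a coefficient of variation of 24% in untrained transgenic mice, 14.8% in trained and 8.29% in untrained wild-type mice. In trained transgenic mice it was 5.25%, below Ckmt2 at 8.13% and Ckb at 7.28%. Its bright probe set read 4857, 4333, 4494, 4676 and 4916 in trained transgenic mice, against 3066, 3264, 5055, 5098 and 3756 in untrained transgenic mice. In the wild type it read 3808, 4317, 4953, 3725 and 3426 in trained mice, against 3592, 3471, 4281, 3891 and 3734 in untrained mice. The 5 untrained transgenic mice spanned more than all other groups together, with TGUT-145 and TGUT-146 above every trained transgenic mouse and TGUT-131 and TGUT-139 below every mouse of the other 3 groups. TGUT-146 thus had the highest Ak1 and the lowest Ckmt2 of all 20 mice. Means were 4655 ± 244 and 4048 ± 972 in trained and untrained transgenic mice, and 4046 ± 600.4 and 3794 ± 314 in trained and untrained wild-type mice (SD, n = 5 each).

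The training difference of Ak1 was 0.16 ± 0.09 log2 averaged over genotypes (95% interval -0.027 to 0.34; limma adjusted p = 0.334). With arrays weighted by how closely their values followed the group means, it was 0.24 log2 (limma adjusted p = 0.0232). That fit gave TGUT-145 and TGUT-146, the mice with the highest Ak1, weights of 0.38 and 0.458 and called 2771 probe sets. Such weights do not tell poor arrays from mice that differ. In transgenic mice alone the training difference was 0.23 ± 0.12 log2 (95% interval -0.03 to 0.49; limma adjusted p = 0.363), and 0.42 log2 with array weights (adjusted p = 0.00955). In wild-type mice alone it was 0.08 ± 0.12 log2 (95% interval -0.18 to 0.34; limma adjusted p = 0.967). The transgene difference averaged over training was 0.14 ± 0.09 log2 (95% interval -0.05 to 0.32; limma adjusted p = 0.44), and the interaction was 0.15 ± 0.18 log2 (95% interval -0.22 to 0.51; limma adjusted p = 1).

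The other Ak1 probe set was dim, at 42.4 to 74.9 intensity, and did not pass the filter. It averaged 61.8 ± 9.3 in trained and 58.2 ± 8.45 in untrained transgenic mice (SD, n = 5 each), and 47.4 ± 5.82 in trained (n = 4) and 50.2 ± 3.27 in untrained wild-type mice (n = 5). With no filter its training difference was 0.0024 ± 0.038 log2 (limma adjusted p = 0.988) and its transgene difference 0.13 ± 0.04 log2 (limma adjusted p = 0.122). Its intensities lie near the added constant of 66.7, which shrinks its log2 values, so the sizes cannot be set against those of the bright probe set.

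The genes nearest to Ak1 over the 20 arrays were Mef2c, a muscle transcription factor (r = 0.954), Pgam2, the muscle phosphoglycerate mutase of glycolysis (r = 0.933), and Hspb3, a small heat shock protein of muscle (r = 0.931). With group means removed r was 0.941, 0.918 and 0.92, so the likeness lay between mice of the same group. Mef2c also spread most in untrained transgenic mice, at 3085 ± 421 in trained and 2228 ± 1433 in untrained transgenic mice, against 2209 ± 983 in trained and 1590 ± 323 in untrained wild-type mice (SD, n = 5 each). Between members, likeness was weaker. Ckm and Ckb had the highest r of the 6 pairs (0.602, and 0.549 within groups), and Ckmt2 and Ak1 had r = 0.0727 (-0.334 within groups).

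Around the members, 40 of 58 listed genes of the pathway could be tested. For training averaged over genotypes 4 of the 40 were called, or 10%, against 4.99% of all tested probe sets. The first share counts genes by their brightest tested probe set and the other counts every probe set, so they are not like for like. Of 5 tested adenylate and nucleotide kinases other than Ak1, 2 rose with training averaged over genotypes (median of the list 0.11 log2). Of all tested probe sets 2.41% were called higher. Ak3, the adenylate kinase of the mitochondrial matrix, averaged 575 ± 40.7 in trained and 447 ± 53.3 in untrained transgenic mice, and 542 ± 77.3 in trained and 437 ± 41 in untrained wild-type mice (SD, n = 5 each). It rose by 0.30 ± 0.06 log2 (limma adjusted p = 0.0134). Every trained transgenic mouse (526.7 to 627) lay above every untrained one (396 to 514). The wild-type groups overlapped, at 463 to 664 in trained and 389 to 481 in untrained mice. How many of all probe sets separate in this way was not counted. The other Ak3 probe sets read 0.49 ± 0.11 log2 (adjusted p = 0.0163) and 0.26 ± 0.09 log2 (adjusted p = 0.0892).

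Nme1, a nucleoside diphosphate kinase, averaged 467 ± 71.9 in trained and 328 ± 46.5 in untrained transgenic mice, and 429 ± 61.4 in trained and 318 ± 41.5 in untrained wild-type mice (SD, n = 5 each). It rose by 0.40 ± 0.08 log2 (limma adjusted p = 0.0104). Its probe set is of a kind that can bind several transcripts, and the gene's other probe set read 0.25 ± 0.10 log2 (adjusted p = 0.128). Leaving out any 1 of the 20 mice kept both calls. Ak4, Nme2 and Nme4 had training values of 0.04, 0.11 and 0.09 log2, not past the threshold. Nme2 was called under quantile normalization, with array weights and without TGUT-145, and Nme4 with array weights.

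None of the 7 tested AMPK subunits and AMPK kinases passed the test for training or for the transgene. Their training values ran from -0.12 log2 for Cab39, a scaffold of the kinase complex upstream of AMPK, to 0.10 log2 for Strada, its pseudokinase partner (median -0.0079 log2). The subunits Prkag1, Prkag2 and Prkab1 read 0.09 ± 0.04, -0.06 ± 0.05 and -0.0079 ± 0.037 log2. The catalytic subunits of AMPK are not among the tested genes. With array weights 2 of the 7 were called for training, Prkag1 and Strada, and without TGUT-145 Strada was.

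Of 10 tested targets and partners of AMPK, 2 fell with training averaged over genotypes, where 2.59% of all tested probe sets were called lower. Ulk1, the kinase that starts autophagy, read 613 to 948 in trained and 732 to 2237 in untrained transgenic mice, and 553 to 1958 in trained and 1473 to 2416 in untrained wild-type mice. The training difference was -0.76 ± 0.21 log2 (limma adjusted p = 0.0459), and that of its other probe set was -0.75 ± 0.20 log2 (adjusted p = 0.039). Foxo3, a forkhead factor active in muscle wasting, fell by 0.52 ± 0.14 on the log2 scale (limma adjusted p = 0.0427), and its other tested probe set by 0.59 ± 0.16 (adjusted p = 0.039). Both calls were weak. The Ulk1 call held in 5 of the 20 fits with 1 mouse left out and was lost without TGT-128, TGT-132, TGT-133, TGT-140, TGT-143, TGUT-131, TGUT-139, TGUT-147, WTT-129, wtt-134, wtt-137, WTUT-130, WTUT-135, WTUT-138 or WTUT-142 (adjusted p 0.0513 to 0.0911). The Foxo3 call held in 8 and was lost without TGT-128, TGT-132, TGT-140, TGUT-131, TGUT-139, TGUT-147, WTT-129, wtt-134, wtt-137, WTUT-130, WTUT-135 or WTUT-142 (adjusted p 0.0538 to 0.087). Gys1, muscle glycogen synthase, had training and transgene values of 0.25 ± 0.08 and -0.26 ± 0.08 log2 (adjusted p = 0.0629 and 0.0894). It was called for training without TGUT-145 or TGUT-146, under quantile normalization and with array weights. Pfkfb2 was called for training with array weights.

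No tested gene of the other lists passed, though some did under other settings. Without TGT-133, Slc25a4, Slc25a3 and Adsl were called, and without TGUT-145, Slc25a4 and Ampd3. Without WTT-144, Slc25a4 was called, and with array weights Slc25a4, Slc25a3, Ampd3, Adsl and Hprt. Adsl was also called under quantile normalization, and Adsl and Slc25a3 without the 2 arrays with the most empty cells. Of 6 carriers and pores listed around the exchange of ATP and ADP by mitochondria, 5 had training values above 0 (median 0.05 log2). Of all tested probe sets 50.7% had values above 0. Slc25a4, the adenine nucleotide carrier of muscle, read 10833 ± 489 in trained and 10327 ± 325 in untrained transgenic mice, and 10665 ± 378 in trained and 10040 ± 277 in untrained wild-type mice (SD, n = 5 each), a difference of 0.08 ± 0.03 log2 (limma adjusted p = 0.078). Of 10 genes of the purine nucleotide cycle and AMP breakdown, 5 had values above 0 (median -0.01 log2). Ampd3, another AMP deaminase, had the value farthest from 0, -0.97 ± 0.37 log2 (limma adjusted p = 0.135), with means of 115 ± 26.9 in trained and 561 ± 303 in untrained transgenic mice, against 551 ± 531 in trained and 589 ± 423 in untrained wild-type mice (SD, n = 5 each). Of the creatine supply, the transporter Slc6a8 and the synthesis enzyme Gamt had training values of -0.07 and -0.01 log2, and Gatm and Ckmt1 were too dim to be tested. For the transgene averaged over training, limma called none of the 40 genes. Hdac5, a histone deacetylase that AMPK phosphorylates, was called with array weights and without TGUT-147, and the glucose transporter Slc2a4 was called without wtt-137.

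**Figure D4:**
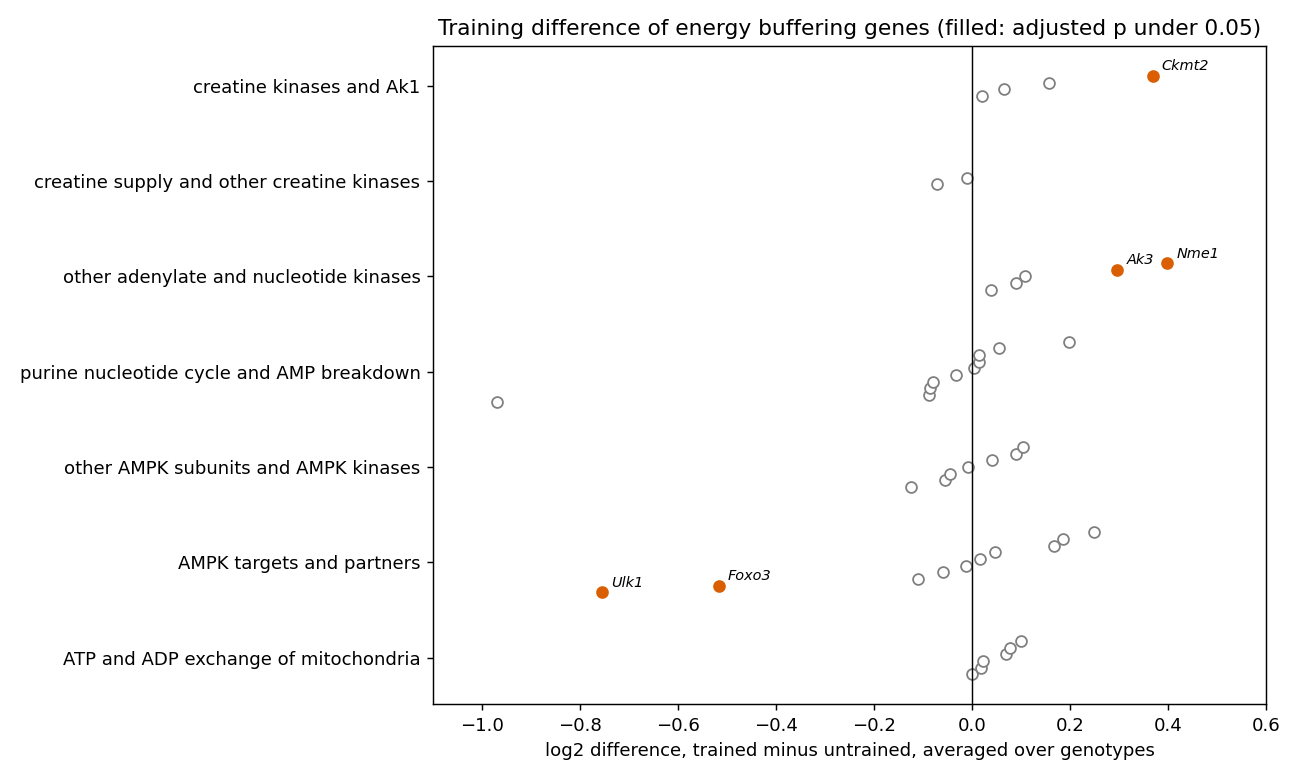
Fitted training difference (x axis, log2, trained minus untrained, averaged over genotypes) of every tested gene in 7 lists (y axis), 1 point per gene. Filled points passed an adjusted p of 0.05: Ckmt2, Ak3 and Nme1 to the right and Ulk1 and Foxo3 to the left of 0.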

How the data were processed

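The authors deposited 1 linear intensity for each probe set on each array. Array medians lay between 157 and 175, the highest in a trained transgenic mouse. The sources used here do not name the summary method or the scaling. Mice were grouped by title and source name. Symbols came from the platform annotation: of 22626 probe sets that are not controls, 20380 carry exactly 1 symbol, 691 several and 1555 none.

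A constant of 66.7 (20th percentile) was added before taking log2, which shrinks changes of dim genes. The 13575 probe sets whose mean exceeded the 40th percentile (126 in intensity) were tested. Empty cells were missing. Tests used limma 3.58.1 (R 4.3.3) on 4 group means, trended variances, 7 contrasts and Benjamini-Hochberg adjustment over all tested probe sets. A gene stands for its brightest tested probe set. On simulated data for training averaged over genotypes, 200 of 13575 probe sets were changed. Recovery there was 71.3% at 0.3 log2, 90.4% at 0.5 and 99.1% at 1, while 5.23% of calls were false. Whether these shares hold for the measured arrays, whose weights ran from 0.38 to 2.97, was not tested. The slow fibre relation used 100000 permutations within groups. The number of arrays limits the precision. Alternatives were quantile normalization, median centring, other added constants, other filters, array weights, the compared groups alone, other probe sets and each array left out. All measured members were named, with pathway genes past the threshold in an averaged contrast and, per member, the 3 genes of highest r. Gys1, Slc25a4, Ampd3, Smtn and Mef2c's levels were added after their values were seen. The members, lists and tests were chosen with earlier results of these data known.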

Additional observations from a re-analysis of the deposited data

Results flagged for a closer look

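The Ckmt2 reading of the untrained transgenic mouse TGUT-146 was 4538 in intensity, while the other 4 untrained transgenic mice lay between 6328 and 6843. The gap to its nearest neighbour took 0.777 of the group's range, above Dixon's 95% critical value of 0.71 for 5 mice. Chance gives such a reading in about 1 of 20 groups, and 16 groups (4 genes in 4 groups) were checked. The same mouse had the highest Ak1 value, 5098, and the lowest slow fibre score of its group, at -0.591 log2 from the group mean. Without it the Ckmt2 training difference averaged over genotypes was 0.32 log2 (adjusted p = 0.00447).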

How the results depend on the processing

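No paired analysis was possible because the mouse numbers in the titles are unique to a mouse. Over the other settings and the fits with 1 mouse left out, 775 of 800 refitted member values kept their direction and side of the threshold, and the 1 called value, Ckmt2 for training averaged over genotypes, did so in all. With array weights 2 members were called for training averaged over genotypes (Ckmt2 and Ak1), 1 in wild-type mice (Ckmt2) and 2 in transgenic mice (Ckmt2 and Ak1). With 1 mouse left out, 0 to 1 members were called for training in wild-type mice and 0 to 1 in transgenic mice. Values near 0 changed sign. Under quantile normalization the transgene value of Ckmt2 was 0.00047 averaged over training and 0.019 in untrained mice, and that of Ckm in untrained mice was -0.0063. With centred arrays Ckb in untrained mice was -0.0018. With array weights the transgene value was -0.00073 (Ckb, averaged), 0.056 (Ckmt2, untrained), -0.103 (Ak1, untrained) and -0.0083 (Ckb, trained), and the Ckb interaction was -0.015. The dim Ak1 probe set had a training value of -0.0365 in wild-type mice. With 1 mouse left out, the transgene value of Ckb ran from -0.0045 to 0.038 averaged, from -0.022 to 0.027 in untrained and from -0.013 to 0.072 in trained mice, and its interaction from -0.017 to 0.068. In untrained mice that of Ak1 ran from -0.026 to 0.15 and that of Ckmt2 from -0.068 to 0.079. The cause was not tested. For training averaged over genotypes, 678 probe sets were called, against 409 with centred arrays, 448 with no filter, 2771 with array weights, 410 without the 2 arrays with the most empty cells and 279 to 1284 with 1 mouse left out. For the transgene averaged over training the count was 167, against 111 with no filter, 662 with array weights, 399 without those 2 arrays and 79 to 525 with 1 mouse left out. For training in transgenic mice it was 42, and 1 to 2466 over all settings. For the transgene in trained mice it was 7, with 26 in a fit to these groups alone and 1016 with array weights. That count ran from 0.286 to 20.3 times the 7 with 1 mouse left out (the highest without wtt-137). For the transgene in untrained mice it was 15, and 0 to 94 over all settings. For training in wild-type mice it was 0, and 92 with array weights. For the interaction it was 0, and 7 with array weights. The slow fibre correlation was -0.0112 for Ckm and 0.0509 for Ckb under quantile normalization and 0.0142 for Ckb with a constant of 1; for Ckmt2 it was 0.594 and 0.554 (permutation adjusted p = 0.0142 and 0.0398). The Ulk1 and Foxo3 calls were also lost with centred arrays (adjusted p = 0.0618 and 0.0541), with no filter (0.0621 and 0.0585) and without the 2 arrays with the most empty cells (0.0882 and 0.0823). The last setting and all settings for the pathway lists were chosen after seeing the data.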
